A study of Mus musculus with 6 samples.

Results

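The inflammatory cytokines of the senescence-associated secretory phenotype were examined as 10 genes taken by name from the count table, out of 49315 genes in all. They were Il1a, Il1b, Il1rn and Il18 of the interleukin-1 family, Il6, Lif and Osm of the interleukin-6 family, Tnf, and the colony-stimulating factors Csf1 and Csf2. All 10 were found, and each had at least 10 reads in the higher library of every comparison below. The table held 6 libraries of polyadenylated RNA from mouse lung, with 1 library per condition. Mice of the C57BL/6 genotype in the labels, male C57BL/6J mice from the Jackson Laboratory in the methods, received sterile saline (sham) or Bleomycin sulfate (BLM) through the oropharyngeal route. Lungs were taken after 21 days and digested into single cells, which were sequenced unsorted or after sorting into Lamp1-enriched and Lamp1-depleted cells by antibody staining of Lamp1 at the cell surface. No group carried a transgene or a deleted gene. The ages of the mice and the dose given to these particular animals are not given in the sources used here. The methods describe pooling 2 to 3 lungs of a group per tube, so that animals could not be told apart within a library.

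Senescent cells secrete a mixture of cytokines, chemokines and proteases. Interleukin-1 alpha acts at or near the cell that makes it and stands upstream of NF-κB in this program, and interleukin-6 is among its most used readouts. The same genes are also classical products of activated macrophages, neutrophils and lymphocytes, which are numerous in an injured lung. Bleomycin breaks DNA and gives an inflammatory phase followed by fibrosis. Lamp1 is a lysosomal membrane protein that reaches the cell surface when lysosomes fuse with the plasma membrane.

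The start regions of 4 members are printed because the results below contrast these genes. Il1a and Il1b lie near each other on chromosome 2 and diverged between the sorted fractions, and Il6 and Lif encode related ligands and diverged in their response to BLM. Each sequence is the RefSeq window from 250 bases before to 50 bases after the annotated start, in build GRCm38.p6, printed 5′ to 3′ on the gene's own strand. Capitals mark matches to the motifs searched on both strands. The windows are chr2:129309923-129310222 (minus strand) for Il1a, chr2:129371090-129371389 (minus strand) for Il1b, chr5:30012864-30013163 (plus strand) for Il6 and chr11:4257318-4257617 (plus strand) for Lif.
Il1a: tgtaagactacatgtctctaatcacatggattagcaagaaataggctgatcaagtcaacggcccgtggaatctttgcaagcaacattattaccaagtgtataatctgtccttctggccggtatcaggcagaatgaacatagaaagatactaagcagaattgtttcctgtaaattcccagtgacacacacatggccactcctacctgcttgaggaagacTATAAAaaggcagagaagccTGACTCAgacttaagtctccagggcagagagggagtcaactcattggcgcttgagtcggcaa
Il1b: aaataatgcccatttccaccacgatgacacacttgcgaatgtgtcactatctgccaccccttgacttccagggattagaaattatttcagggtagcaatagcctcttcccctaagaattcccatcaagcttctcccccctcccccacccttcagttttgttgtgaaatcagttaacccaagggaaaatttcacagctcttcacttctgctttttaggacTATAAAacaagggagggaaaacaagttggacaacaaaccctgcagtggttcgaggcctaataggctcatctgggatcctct
Il6: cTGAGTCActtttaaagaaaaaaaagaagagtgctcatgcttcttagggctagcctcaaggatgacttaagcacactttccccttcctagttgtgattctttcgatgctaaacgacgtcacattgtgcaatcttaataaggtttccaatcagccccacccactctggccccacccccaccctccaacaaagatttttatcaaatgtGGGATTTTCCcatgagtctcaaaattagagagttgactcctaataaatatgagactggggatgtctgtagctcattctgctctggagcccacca
Lif: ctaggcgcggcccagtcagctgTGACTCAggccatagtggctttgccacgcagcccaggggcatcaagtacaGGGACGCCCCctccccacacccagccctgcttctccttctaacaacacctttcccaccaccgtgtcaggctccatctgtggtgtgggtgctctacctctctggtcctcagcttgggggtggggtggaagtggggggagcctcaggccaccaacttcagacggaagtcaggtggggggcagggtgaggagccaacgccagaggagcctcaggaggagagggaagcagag
Both interleukin-1 windows held a TATA box (TATAAA), 32 bases before the start in Il1a and 31 bases before it in Il1b. Il1a also held an AP-1 motif (TGANTCA) 12 bases before the start, which Il1b did not. Il6 and Lif each held an AP-1 motif and a match to the NF-κB consensus, the latter 44 and 178 bases before the start. Windows were found for 9 of the 10 members. Among 32851 mouse promoter windows, 13.6% held the TATA box, 7.81% the AP-1 motif and 8.46% the NF-κB consensus. Of the members' 11 windows, 5 held the TATA box, 4 the AP-1 motif and 3 the NF-κB consensus, for each motif in different genes. The TATA matches of Il18 and Il1rn were on the opposite strand, 175 bases before and 14 bases after the start. The cyclic AMP response element (TGACGTCA) and the STAT motif (TTCNNNGAA) were in 1.79% and 8.30% of all windows and in none of the members' windows. A match describes these letters only.

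Counted reads per library ran from 30236120 to 52918696. The BLM Lamp1-depleted library stood apart: 38.4% of its reads fell on 1 gene, Gm26917, against 0.884% to 7.10% elsewhere, and its TMM scaling factor was 0.699. Results that use this library are therefore also given by total counts where the direction differs. Lamp1 itself was higher in enriched than in depleted cells, with log2 ratios of 1.75 (sham) and 1.77 (BLM). The leukocyte gene Ptprc was the other way round, at 202 CPM (reads scaled to a common library size) in sham enriched against 2593 in sham depleted cells and at 173 against 1267 in BLM cells. Endothelial and platelet markers were at least 2-fold higher in enriched cells for 10 of 10 genes each in both treatments, and T cell, B cell and NK cell markers were lower for every gene measured. Fibroblast markers were higher for 8 of 10 genes in sham and 10 of 10 in BLM mice, and epithelial markers for 9 and 6 of 10, with none lower. Of all genes, 27.5% in sham and 34.4% in BLM mice were higher, and 25.2% and 22.6% lower. Fewer cells of a type and less RNA per cell cannot be told apart in such libraries.

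Values below are CPM scaled by TMM, and a difference is a log2 ratio of those values with its 95% counting interval in parentheses. The interval covers counting error between these libraries and says nothing of the spread between mice. It also leaves out the choice of scaling. By total counts, the median of all genes in BLM over sham shifted by −0.72 in depleted and by 0.01 in enriched cells. With total counts outside Gm26917, it shifted by −0.07 and 0.02. The size of a gap between those fractions, and which fraction has the larger ratio, can depend on that choice. A comparison of BLM with sham within 1 population has no test, because each has 1 library per side; a test over all populations follows the values by gene.

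**Figure D1:**
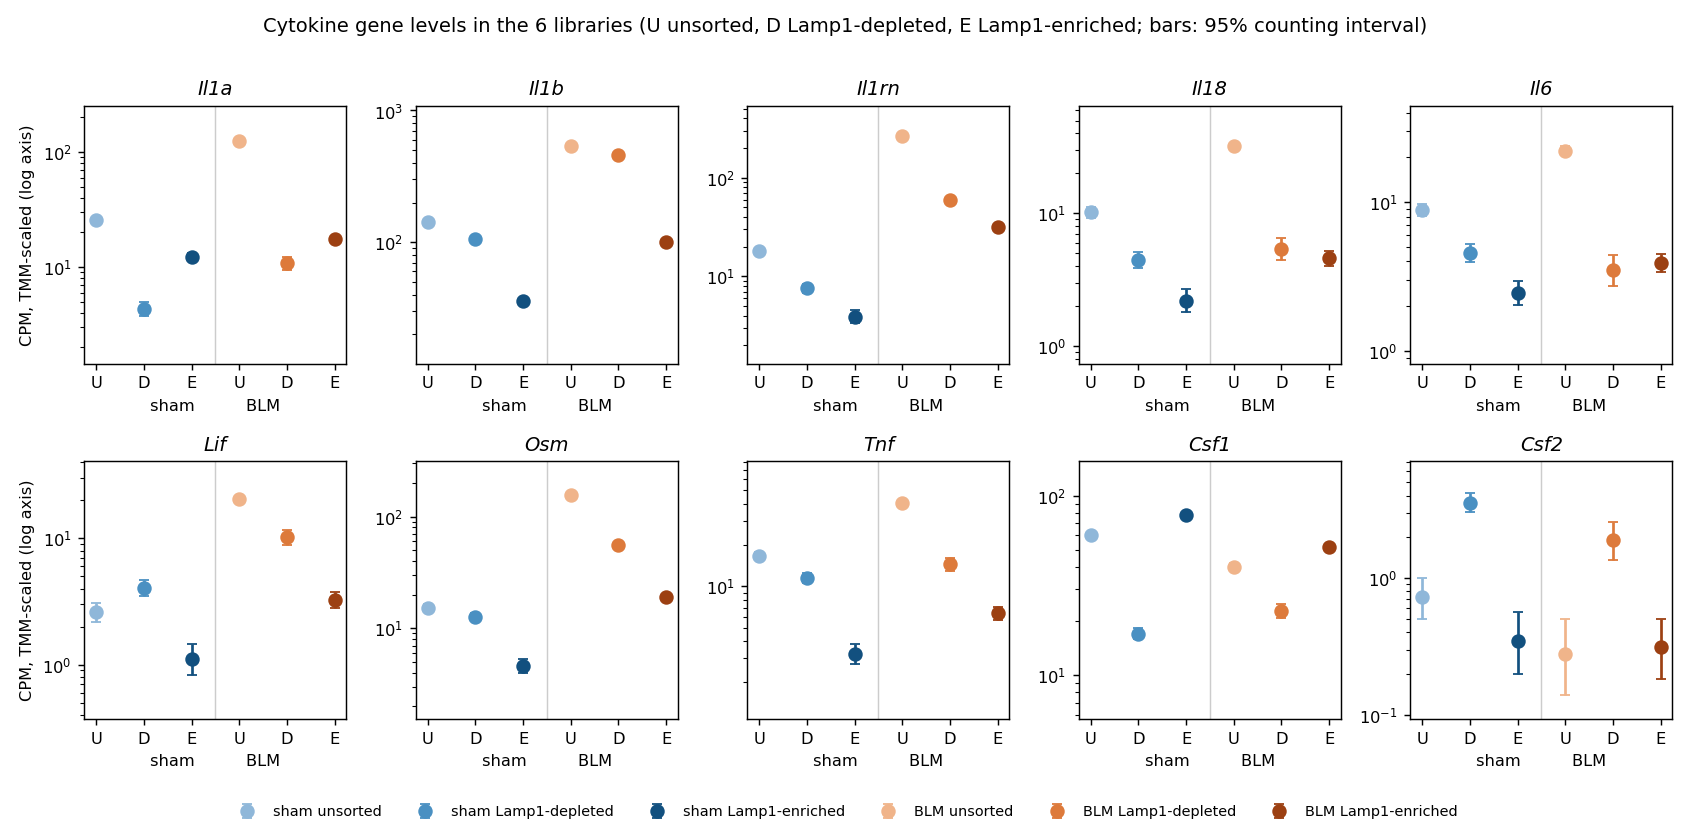
Level of each of the 10 cytokine genes in the 6 libraries, 1 panel per gene, in TMM-scaled CPM on a log axis, with sham and BLM libraries side by side and error bars showing the 95% counting interval. BLM unsorted cells are the highest library for 8 genes; Csf1 is highest in sham Lamp1-enriched cells and Csf2 in sham Lamp1-depleted cells.

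In unsorted lung cells, 8 of the 10 cytokine genes were at least 2-fold higher in BLM than in sham mice, and Csf2 was at least 2-fold lower. Of 22772 genes, 13.9% were at least 2-fold higher and 16.0% lower in that comparison. The members' median log2 ratio was 1.79, beside −0.07 over all genes. The order, from the largest ratio down, was Il1rn, Osm, Lif, Il1a, Il1b, Il18, Il6 and Tnf. Csf1 lay within 2-fold.

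Il1rn encodes the interleukin-1 receptor antagonist, which occupies the receptor without signalling. It stood at 18.2, 7.55 and 3.89 CPM in sham unsorted, depleted and enriched cells and at 267, 59.2 and 31.5 CPM in the BLM cells in the same order. Every BLM library was above every sham library. The log2 ratio of BLM over sham was 3.87 (3.78 to 3.98) in unsorted cells, a 14.7-fold difference. It was 3.01 (2.79 to 3.25) in enriched and 2.97 (2.80 to 3.15) in depleted cells. The difference between those sorted fractions, 0.04 (−0.24 to 0.32), did not exceed counting error under TMM scaling. It depends on how the BLM depleted library is scaled.

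Il1b encodes the secreted interleukin-1 beta, which is cut to its active form after inflammasome assembly. Its levels were 142, 105 and 35.8 CPM in sham unsorted, depleted and enriched cells and 541, 455 and 101 CPM in the BLM cells. It was high in unsorted and depleted cells and low in enriched cells in both treatments. The log2 ratio of BLM over sham was 1.92 (1.88 to 1.96) in unsorted, 1.49 (1.41 to 1.57) in enriched and 2.12 (2.07 to 2.17) in depleted cells. Scaled by total counts, the ratio was larger in enriched than in depleted cells. With total counts outside Gm26917 it stayed larger in depleted cells. In the depleted cells, neutrophil markers moved the same way: 9 of 9 measured were at least 2-fold higher in BLM, with a summed level of 89.4 CPM in sham and 587 CPM in BLM cells. Of all genes, 13.7% were at least 2-fold higher there. The part of neutrophils in the result was not tested. Il1bos, antisense to Il1b exons, had 14 to 75 reads beside 1648 to 21328 for Il1b.

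Il1a encodes interleukin-1 alpha, which is active without cleavage. Its levels were 25.7, 4.32 and 12.3 CPM in sham unsorted, depleted and enriched cells and 126, 10.7 and 17.4 CPM in the BLM cells. Unlike Il1b, it was higher in enriched than in depleted cells of both treatments. The BLM difference was 2.29 (2.20 to 2.38) in unsorted cells but 0.50 (0.35 to 0.65) in enriched cells, a gap of −1.79 (−1.97 to −1.62) in log2 ratio that exceeds counting error. Gm14023, on the opposite strand, overlaps Il1a exons and had 81 to 1217 reads, and since the strand setting of the counting is not given in the sources used here, reads of the overlapping pair cannot be told apart.

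Il18 encodes a cytokine that drives interferon gamma in lymphocytes. It stood at 10.1, 4.45 and 2.20 CPM in sham unsorted, depleted and enriched cells and at 32.2, 5.40 and 4.57 CPM in the BLM cells. Unsorted libraries were the highest of each treatment. The BLM difference was 1.67 (1.52 to 1.82) in unsorted, 1.05 (0.72 to 1.41) in enriched and 0.28 (−0.07 to 0.62) in depleted cells, the last within counting error and −0.44 when scaled by total counts.

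Per kilobase of exon, the balance of agonist and antagonist also differed between libraries. Il1rn was at 0.04 of the Il1b level in sham unsorted and 0.17 of it in BLM unsorted cells. Relative to Il1a, Il1rn went from 0.25 to 0.76 in unsorted, from 0.11 to 0.65 in enriched and from 0.62 to 1.97 in depleted cells. On this scale Il1rn exceeded Il1a in the BLM depleted library alone, which rests on the lengths used. These are unions of all annotated exons, 5535 bases for Il1rn and 1974 for Il1a. By reads, Il1rn over Il1a was 0.71, 1.75 and 0.32 in sham unsorted, depleted and enriched cells. It was 2.12, 5.51 and 1.81 in the BLM cells. Il1b stood at 43.9 times the Il1a level in BLM depleted and 25.2 times in sham depleted cells, against 3.01 to 5.98 times in the other 4 libraries.

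Osm encodes oncostatin M, an activator of fibroblasts and endothelium. Its levels were 15.3, 12.7 and 4.61 CPM in sham unsorted, depleted and enriched cells and 156, 56.1 and 19.1 CPM in the BLM cells. Every BLM library lay above every sham library, as for Il1rn. The log2 ratio was 3.35 (3.25 to 3.47) in unsorted, 2.05 (1.83 to 2.27) in enriched and 2.14 (2.00 to 2.29) in depleted cells.

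Lif encodes leukemia inhibitory factor, a close relative of oncostatin M encoded beside it on chromosome 11. It stood at 2.60, 4.06 and 1.11 CPM in sham unsorted, depleted and enriched cells and at 20.4, 10.2 and 3.25 CPM in the BLM cells. BLM unsorted cells held the highest level, while among the sham libraries the depleted cells did. The log2 ratio was 2.97 (2.70 to 3.26) in unsorted, 1.54 (1.09 to 2.03) in enriched and 1.33 (1.04 to 1.62) in depleted cells.

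Il6, which signals through the shared receptor subunit gp130 as Lif and Osm do, was low throughout. Its levels were 8.86, 4.54 and 2.46 CPM in sham unsorted, depleted and enriched cells and 22.2, 3.50 and 3.91 CPM in the BLM cells. The unsorted libraries were highest, and the sorted libraries overlapped between treatments. The BLM difference was 1.32 (1.16 to 1.5) in unsorted, 0.67 (0.33 to 1.01) in enriched and −0.37 (−0.78 to 0.02) in depleted cells, where it lay within counting error. The gap between enriched and depleted cells, 1.04 (0.54 to 1.54), exceeded it.

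Tnf encodes tumour necrosis factor, the archetypal NF-κB activator. It stood at 16.7, 11.6 and 3.24 CPM in sham unsorted, depleted and enriched cells and at 40.6, 14.4 and 6.38 CPM in the BLM cells. The order of the cell populations was the same in both treatments. The log2 ratio was 1.28 (1.16 to 1.41) in unsorted and 0.98 (0.70 to 1.27) in enriched cells, and in depleted cells it was 0.32 (0.11 to 0.53) but −0.40 when scaled by total counts.

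Csf1 encodes macrophage colony-stimulating factor, the survival factor of macrophages. Its levels were 59.9, 17.0 and 77.4 CPM in sham unsorted, depleted and enriched cells and 40.1, 22.8 and 51.5 CPM in the BLM cells. Enriched cells were highest and depleted cells lowest in both treatments, a pattern that no other member had. The BLM difference was −0.58 (−0.67 to −0.49) in unsorted, −0.59 (−0.66 to −0.52) in enriched and 0.42 (0.25 to 0.58) in depleted cells, the last being −0.30 when scaled by total counts.

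Csf2 encodes granulocyte-macrophage colony-stimulating factor, on which alveolar macrophages depend. It was the rarest member, with 11 to 162 reads. Gm12223, on the opposite strand of its exons, had 0 to 15 reads, and in BLM depleted cells 15 beside 40 for Csf2, and these too cannot be told apart. Its levels were 0.721, 3.55 and 0.348 CPM in sham unsorted, depleted and enriched cells and 0.279, 1.89 and 0.312 CPM in the BLM cells. Depleted cells were highest in both treatments. The BLM difference was −1.33 (−2.50 to −0.36) in unsorted and −0.90 (−1.45 to −0.40) in depleted cells, and in enriched cells −0.15 (−1.23 to 0.92), within counting error.

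**Figure D2:**
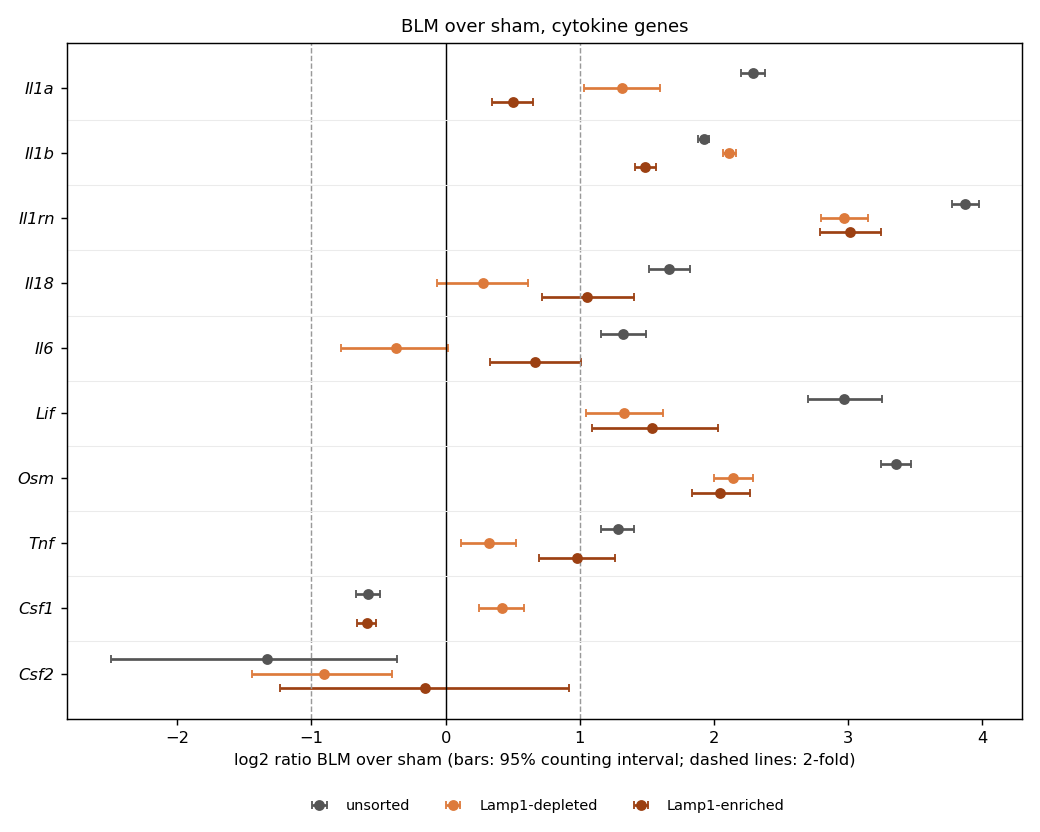
Log2 ratio of BLM over sham for each cytokine gene in unsorted, Lamp1-enriched and Lamp1-depleted cells, with 95% counting intervals and a line at 0. Il1rn, Osm, Lif, Il1b and Il1a are above 0 in all 3 cell populations; Tnf, Il18 and Csf1 in depleted cells lie above 0 here and below 0 when scaled by total counts.

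Within the sorted fractions, 5 members were at least 2-fold higher in BLM than in sham enriched cells, namely Il1b, Il1rn, Lif, Osm and Il18, where 10.2% of all genes were. None was at least 2-fold lower, where 7.81% of all genes were. In depleted cells 5 members were higher, namely Il1a, Il1b, Il1rn, Lif and Osm, where 13.7% of all genes were, and none was lower, where 22.3% were. Scaled by total counts, 3 were higher in depleted cells (Il1b, Il1rn and Osm) and 2 lower (Il6 and Csf2). The members' medians were 1.02 in enriched and 0.86 in depleted cells, beside −0.00 and −0.21 over all genes. By total counts the median in depleted cells was 0.15, beside −0.92 over all genes. Il18 at 1.05 and Tnf at 0.98 in enriched cells lay on either side of the 2-fold line.

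Over the 6 libraries, BLM was tested against sham with cell population as a block and 2 residual degrees of freedom, a test added after the values were seen. The populations of a treatment came from like-treated pooled lungs, so that its p-values do not measure the spread between mice. They rest on how evenly the difference held over populations and, with 8.91 prior degrees of freedom, more on a spread estimated over all genes. edgeR's quasi-likelihood test called 5 members higher in BLM, namely Il1a, Il1b, Il1rn, Lif and Osm, and none lower, where 2.85% of 21906 genes were called higher and 1.73% lower. Il1rn was higher by 3.34 on the log2 scale (edgeR adjusted p = 0.00054), Osm by 2.57 (edgeR adjusted p = 0.0014) and Il1b by 1.89 (edgeR adjusted p = 0.00328). These 3 members were called under all 9 alternatives of the test.

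Lif was higher by 2.01 (edgeR adjusted p = 0.0119), and without BLM unsorted cells the adjusted p was 0.0649. Il1a was higher by 1.42 (edgeR adjusted p = 0.038). Its call was lost by total counts, in the 4 sorted libraries alone, and without sham unsorted, sham depleted, BLM unsorted or BLM depleted cells, with adjusted p up to 0.205. Tnf at 0.91 and Il18 at 1.06 had edgeR adjusted p of 0.0872 each, and both were called by the DESeq2 Wald test, and by edgeR without sham depleted or BLM depleted cells. Il6 at 0.61, Csf2 at −0.76 and Csf1 at −0.21 had edgeR adjusted p of 0.36, 0.423 and 0.73.

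Myeloid markers moved with these differences in unsorted cells, and macrophage markers less so in the sorted fractions. Of 10 monocyte and interstitial macrophage markers, 9 were at least 2-fold higher in BLM than in sham unsorted cells, and their summed level was 161 CPM in sham and 985 CPM in BLM cells. Of 10 alveolar macrophage markers, 8 were higher and 1 lower, with a summed level of 806 CPM in sham and 3293 CPM in BLM cells. Of all genes, 13.9% were higher and 16.0% lower there. In enriched cells, 5 of 10 monocyte, 5 of 10 alveolar macrophage and 6 of 10 neutrophil markers were higher, and 1, 1 and 0 were lower. Of all genes in enriched cells, 10.2% were higher and 7.81% lower. Of the 10 monocyte markers, 4 were higher and 1 lower in depleted cells, with a median of 0.23. Of the 10 alveolar macrophage markers, 1 was higher and 2 lower in depleted cells, with a median of −0.11. In depleted cells, 9 of 16 genes of the early response to tissue dissociation were higher in BLM, with a median of 1.15. Of all genes in depleted cells, 13.7% were higher and 22.3% lower. The part of these cells and of dissociation in the cytokine results was not tested.

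Between the sorted fractions, more members were lower than higher in Lamp1-enriched cells. In sham mice, 2 members were at least 2-fold higher in enriched than in depleted cells (Il1a and Csf1) and 6 lower (Il1b, Tnf, Lif, Osm, Il18 and Csf2), against 27.5% and 25.2% of all genes. In BLM mice, 1 member was higher (Csf1) and 5 were lower (Il1b, Tnf, Lif, Osm and Csf2), against 34.4% and 22.6%. Scaled by total counts, Il1a and Csf1 were higher in BLM mice and Il1b, Lif and Csf2 lower, while Tnf and Osm were within 2-fold. The members' medians were −1.24 in sham and −1.04 in BLM mice, beside −0.01 and 0.29 over all genes, and by total counts the BLM median was −0.48, beside 0.85. Csf2 differed most, by −3.31 (−4.19 to −2.61) in sham and −2.56 (−3.51 to −1.75) in BLM mice, and was 9.92-fold and 5.89-fold lower in enriched cells.

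The enriched against depleted contrast could be tested over both treatments, with 4 sorted libraries, treatment as a block and 1 residual degree of freedom. Its p-values, also those of the receptors below, rest on a spread estimated over all genes together. That shared spread fully replaced each gene's own, because edgeR estimated an infinite value for the prior degrees of freedom. How evenly a gene's difference held in sham and BLM therefore carried no weight in its p-value. These p-values also do not measure the spread between mice. edgeR's quasi-likelihood test with Benjamini-Hochberg adjustment over 20593 genes called 8 of the 10 members, where 40.7% of all genes were called, 21.5% as higher and 19.2% as lower. Csf1 was higher in enriched cells by 1.59 on the log2 scale (edgeR adjusted p = 4.4e-05), in both treatments. Il1a was higher by 1.0 (edgeR adjusted p = 0.0318), a call that was lost with the DESeq2 Wald test, with all 6 libraries and with total counts, where adjusted p reached 0.157.

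The 6 called lower were Il1b, Il1rn, Tnf, Lif, Osm and Csf2. For Il1b, the log2 fold change was −1.96 (edgeR adjusted p = 1.48e-06), and for Osm it was −1.61 (edgeR adjusted p = 4.4e-05). Csf2 was lower by the most, at −3.07 (edgeR adjusted p = 0.000112). Lif at −1.86, Tnf at −1.60 and Il1rn at −1.03 had edgeR adjusted p of 0.000651, 0.000619 and 0.011. For Il6 the value was −0.46 (edgeR adjusted p = 0.495) and for Il18 −0.72 (edgeR adjusted p = 0.238). With total counts in place of TMM, the test called 2 members, Csf1 and Csf2, and 4436 genes in place of 8386.

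**Figure D3:**
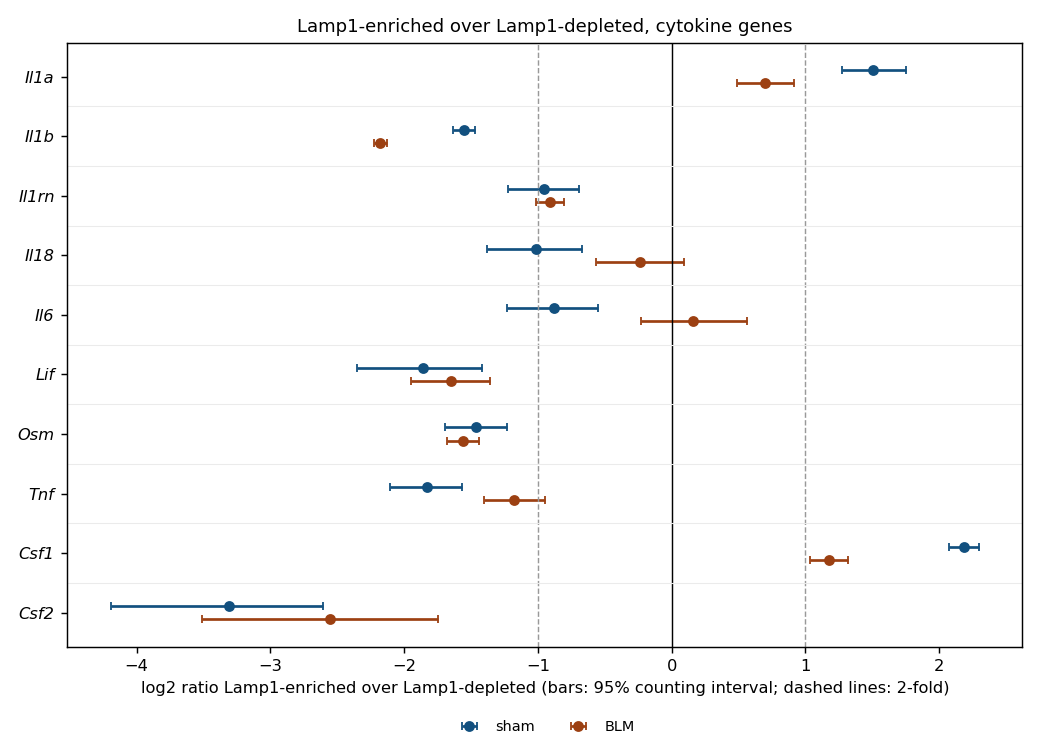
Log2 ratio of Lamp1-enriched over Lamp1-depleted cells for each cytokine gene in sham and in BLM mice, with 95% counting intervals and a line at 0. Il1a and Csf1 lie above 0 in both treatments and Il1b, Il1rn, Tnf, Lif, Osm and Csf2 below 0 in both; Il18 in BLM mice lies below 0 here and at 0.32 when scaled by total counts.

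The sorted fractions were also compared with unsorted cells, in comparisons that share the unsorted libraries. Enriched cells were at least 2-fold below unsorted cells for 9 members in sham and 8 in BLM mice, against 15.8% and 19.1% of all genes, and above them for none, against 2.55% and 12.6%. Depleted cells were below unsorted cells for 4 members in sham and 6 in BLM mice, against 30.4% and 33.6%, and above them for Csf2 in each, against 18.3% and 16.9%. In BLM mice, Il1a was lower than in unsorted cells by −2.85 (−2.95 to −2.75) in enriched and −3.55 (−3.75 to −3.36) in depleted cells. Il1rn differed likewise, by −3.08 (−3.16 to −3.01) and −2.17 (−2.26 to −2.09). Alveolar macrophage markers showed the same loss in BLM mice, with 9 of 10 in enriched and 10 of 10 in depleted cells at least 2-fold below unsorted cells, and their part in the cytokine result was not tested.

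Genes listed as receptors for these cytokines also divided between the sorted fractions in the same test. Of 15 receptor genes, 5 were called higher in enriched cells, namely Il1r1, Il6st, Tnfrsf1a, Lifr and Osmr, and 8 lower, namely Il1r2, Il6ra, Tnfrsf1b, Il18r1, Il18rap, Csf1r, Csf2ra and Csf2rb. Il1rap and Csf2rb2 were not called. Of all genes, 21.5% were called higher and 19.2% lower. Osmr, the oncostatin M receptor chain, was higher by 3.26 (edgeR adjusted p = 1.52e-16), and Lifr, which binds Lif, by 3.12 (edgeR adjusted p = 3.34e-12). Their ligands Osm and Lif were lower in the same cells. Il6st, which encodes gp130, was higher by 2.05 (edgeR adjusted p = 6.83e-06), while Il6ra, the ligand-binding chain for interleukin-6, was lower by −2.71 (edgeR adjusted p = 1.11e-12).

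Il1r1, the signalling receptor of interleukin-1, was higher in enriched cells by 2.72 (edgeR adjusted p = 1.93e-12). Il1r2, a decoy that binds the cytokine without signalling, was lower by −1.49 (edgeR adjusted p = 0.000394). Per kilobase, Il1r2 stood at 0.24 of the Il1r1 level in both enriched libraries, and at 1.99 times it in sham depleted and 9.61 times it in BLM depleted cells. This too rests on the lengths used. By reads, Il1r2 over Il1r1 was 0.07 in both enriched libraries, 0.60 in sham depleted and 2.88 in BLM depleted cells. Csf1 and its receptor also lay on opposite sides, with Csf1r at −1.95 (edgeR adjusted p = 2.69e-07). These values describe RNA of mixed cells.

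**Figure D4:**
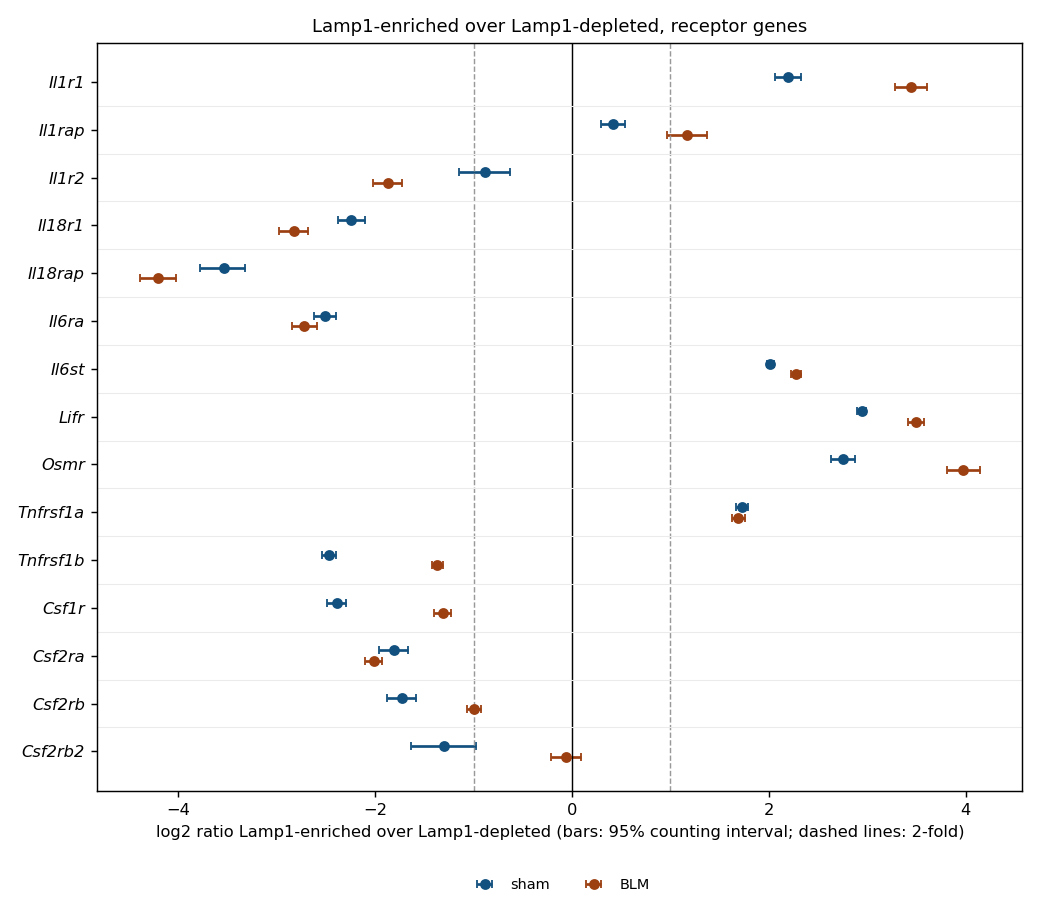
Log2 ratio of Lamp1-enriched over Lamp1-depleted cells for the 15 receptor genes in sham and BLM mice, with 95% counting intervals and a line at 0. Il1r1, Il6st, Tnfrsf1a, Lifr and Osmr lie above 0 in both treatments, and the interleukin-18 receptor chains Il18r1 and Il18rap are among those below 0.

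Among the listed receptor genes, the BLM difference in unsorted cells was largest for Csf2rb2, at 4.11 (3.97 to 4.25). Csf2rb was higher by 3.55 (3.49 to 3.62), Csf2ra by 2.68 (2.60 to 2.75) and Csf1r by 2.51 (2.44 to 2.57), while Csf2 and Csf1 themselves were lower. Tnfrsf1b, the TNF receptor of leukocytes, was higher by 2.81 (2.76 to 2.87) and Tnfrsf1a by 0.58 (0.54 to 0.63). Lifr was lower, by −1.15 (−1.18 to −1.11). In all, 8 of 15 receptor genes were at least 2-fold higher and 1 lower, beside 13.9% and 16.0% of all genes. In enriched cells Il1r1 was higher in BLM by 1.46 and Osmr by 1.11.

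Other genes of the pathway were taken from lists. Among 14 genes of cytokine processing and soluble inhibition, 6 were at least 2-fold higher in BLM unsorted cells and none lower. Their median was 0.92, and of all genes 13.9% were higher and 16.0% lower. Nlrp3, the inflammasome sensor upstream of interleukin-1 beta cleavage, was at 33.9, 18.6 and 7.43 CPM in sham unsorted, depleted and enriched cells and at 176, 114 and 21.6 CPM in the BLM cells. It was thus higher in BLM in each population, by 2.38, 2.62 and 1.54. Naip5, another inflammasome sensor, was higher by 1.87 in unsorted cells, and Pycard, the inflammasome adaptor, was lower in BLM depleted cells by −1.33. Among 20 genes of NF-κB and JAK-STAT feedback, 7 were higher and none lower in BLM unsorted cells, beside the same shares of all genes. Their median was 0.78. In the edgeR test of the sort, 2 processing genes were called higher and 5 lower, and 3 feedback genes higher and 11 lower, out of 14 and 20, beside the 21.5% and 19.2% of all genes.

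The cytokines were also set against leukocyte RNA. Reads were divided by those of Ptprc, a choice made after the values were seen, and are given per 1000 Ptprc reads. Il1b was at 308, 40.5 and 177 in sham unsorted, depleted and enriched cells and at 624, 359 and 581 in the BLM cells. The division adds the same amount to the log2 ratio of every gene, namely 3.68 for sham enriched over depleted cells and 2.87 for BLM, so that a value above 0 is not particular to the cytokines. On this scale 95.8% of all tested genes in sham and 92.8% in BLM mice were above 0, as were all 10 members. The members' medians were 2.44 and 1.83, below the 3.67 and 3.17 of all genes. For Csf2 the ratios were 0.33 (−0.41 to 1.07) and 0.27 (−0.55 to 1.09), within counting error.

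Csf2 stood between 1.37 and 1.80 per 1000 Ptprc reads in 5 libraries and at 0.32 in BLM unsorted cells. Between the unsorted libraries, its BLM difference was −2.28 (−3.26 to −1.30) on this scale, with 11 and 35 reads, beside −0.98 over all genes. Members of the interleukin-1 and interleukin-6 families ranged from 0.42 (0.25 to 0.59) for Il6 in unsorted to 4.01 (3.83 to 4.18) for Il1rn in depleted cells, where the medians over all genes were −0.98 and 0.83. Cells without Ptprc contribute to the numerator only, and how much they did was not tested.

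**Figure D5:**
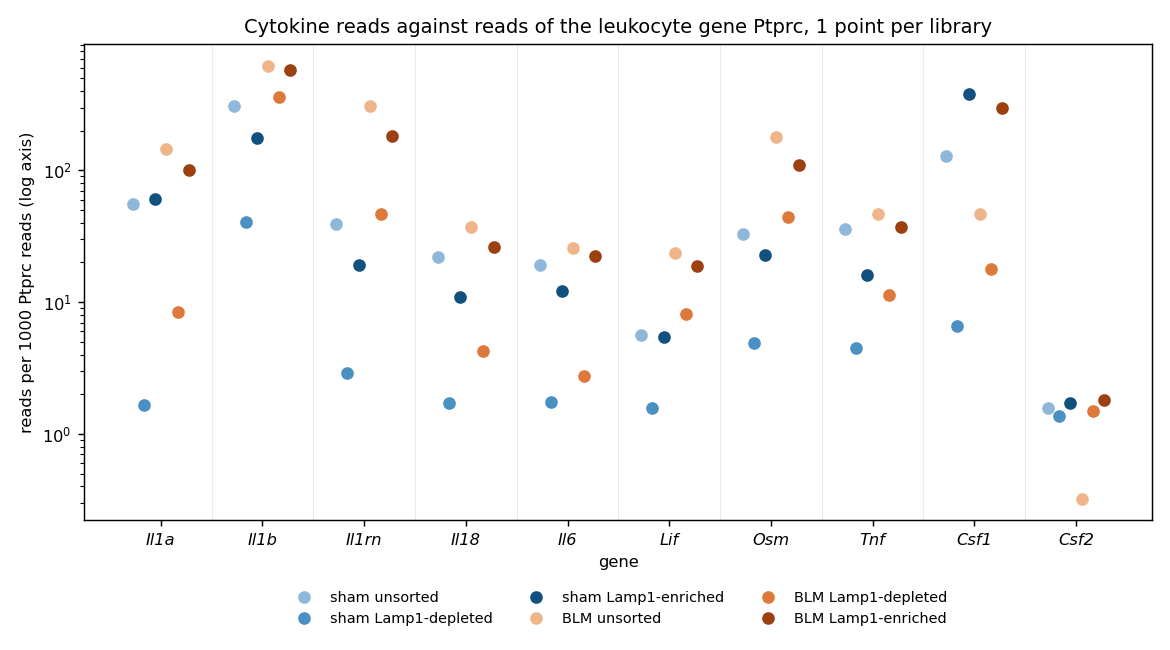
Reads of each cytokine gene per 1000 Ptprc reads in the 6 libraries, on a log axis, with sham and BLM libraries side by side. Lamp1-enriched cells lie above Lamp1-depleted cells of the same treatment for all 10 genes, as 95.8% of all genes do in sham and 92.8% in BLM mice; Csf2 lies between 1.37 and 1.80 except in BLM unsorted cells, at 0.32.

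Per kilobase of exon, Il1b was the most abundant member in all 6 libraries, with 39.0% to 78.5% of the sum over members. Csf1 ranked next in both enriched libraries, at 30.4% of the sum in sham and 10.1% in BLM mice, and was at 1.4% in BLM unsorted and BLM depleted cells. Lif and Csf2 were at or under 1.1% and 5.2% of the sum. Neighbours in the order of libraries did not always differ beyond counting error. Il1a in sham enriched and BLM depleted cells, Lif in BLM enriched and sham unsorted cells, and the 3 lowest libraries of Csf2 overlapped, as did Il6 in sham depleted, BLM enriched and BLM depleted cells in turn. Il18 in BLM depleted, BLM enriched and sham depleted cells was also within it from one to the next.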

How the data were processed

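The values deposited by the authors are whole-number counts of reads for each gene, not normalized. The submitters' processing notes name Trimmomatic 0.36, STAR 2.5.2b, featureCounts, Subread 1.5.2, DESeq2 and build GRCm38. The annotation release and the strand setting are not given in the sources used here. Of 49315 genes, 48970 were found by identifier in GENCODE M21, used for exon lengths.

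Counts were scaled with TMM in edgeR 4.0.16 (R 4.3.3). Log2 ratios used a prior count of 0.5 reads in Python 3.11.15 (numpy 2.4.6, scipy 1.17.1, pandas 2.3.3) where the higher library had 10 reads or more, with 95% Clopper-Pearson intervals. With 1 library per condition, a call means a 2-fold difference. The edgeR quasi-likelihood test kept genes with filterByExpr, called adjusted p under 0.05, and estimated 0.316 as the biological coefficient of variation. Scripts were tested on simulated data.

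The members and gene lists were chosen with earlier results of these data known. Named genes were all members, their receptors, the 2 pathway genes of at least 50 reads with the largest ratio in each direction, the 3 genes most alike in pattern, and Lamp1, Ptprc and Pecam1; some of these are not printed. Gm26917 was named after its values were seen. Marker lists, of 10 genes each for 12 cell types, came from general knowledge. Alternatives were DESeq2 1.42.0 size factors or Wald test, total counts, a prior of 2, read minimums of 1 or 50, calls at a log2 ratio of 2, all 6 libraries, and thinned counts. Total counts outside Gm26917 and TMM without the BLM Lamp1-depleted library were added after seeing the data, as was the test of BLM against sham over 6 libraries with its alternatives.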

Additional observations from a re-analysis of the deposited data

Results flagged for a closer look

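Csf1 differed in direction between cell populations. Its log2 ratio of BLM over sham was 0.42 in Lamp1-depleted cells, against −0.58 in unsorted and −0.59 in Lamp1-enriched cells. The difference was not tested, since no condition has a replicate. The value in depleted cells was −0.30 when scaled by total counts. It kept its sign with total counts outside Gm26917, where the median of all genes shifted by −0.07. Among the scalings tried, its direction changed under total counts only.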

How the results depend on the processing

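With total counts only, the median of all genes shifted by −0.72 in BLM over sham depleted cells and by 0.55 in BLM enriched over depleted cells. In the former, 3 members were then at least 2-fold higher and 2 lower (Il6 and Csf2), and in the latter 2 were higher and 3 lower. The quasi-likelihood test then called 2 members and 4436 genes. Signs changed for Tnf (−0.40), Il18 (−0.44) and Csf1 (−0.30) in BLM over sham depleted cells and for Il18 (0.32) in BLM enriched over depleted cells. With total counts outside Gm26917, the medians of all genes shifted by −0.07 and −0.12 in these comparisons, and those signs did not change. No other member log2 ratio of the 5 main comparisons changed sign.

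At a log2 ratio of 2, the members called higher and lower in BLM over sham were 4 and 0 in unsorted cells, 2 higher in enriched and 3 higher in depleted cells. For enriched over depleted cells they were 1 higher and 1 lower in sham and 0 higher and 2 lower in BLM mice. At 50 reads or more, Csf2 left the unsorted comparison, giving 0 lower. Of 114 counts of members or genes, 97 stayed within 1.5 times the reported count, and of 377 member log2 ratios, 326 moved by less than counting error. Il1a lost its call in 3 of 5 alternatives of the test of the sort, with adjusted p from 0.0348 to 0.157. The ranges were 4.04e-05 to 0.0374 for Csf1 and 0.000231 to 0.0177 for Csf2.

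In the test of BLM against sham over 6 libraries, the DESeq2 Wald test called 1800 genes in place of 1005. Without each library in turn, 3 to 6 members and 779 to 1304 genes were called, with 3 members when BLM unsorted cells were left out.

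Leaving out a library of the 4-library test leaves no residual degrees of freedom. No paired analysis was possible because the labels give no replicate numbers, beyond the treatment block that the test of the sort already holds. Csf2, at 11 to 162 reads, was limited by depth.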

Other observations

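Relatives of these cytokines also differed between the sorted fractions. Of 14 relatives with enough reads in the edgeR test, 3 were called higher in Lamp1-enriched cells and 6 lower, beside 21.5% and 19.2% of all genes. Ltb, which encodes the membrane anchor of lymphotoxin, was at 3.80 CPM in sham enriched against 69.9 CPM in sham depleted cells, and at 1.16 against 36.0 CPM in BLM cells. Lta, its partner, was at 0.33 against 6.08 CPM in sham and 0.29 against 6.34 CPM in BLM cells. The other direction was held by Tnfsf10, which encodes TRAIL, at 887 CPM in BLM enriched against 45.7 CPM in BLM depleted cells. Il33, an alarmin of the interleukin-1 family, was at 8.46 against 0.95 CPM in the same libraries, and Il34, a second ligand of the Csf1 receptor, was at 6.24 against 0.48 CPM in sham cells. Il36g, listed under its older name Il1f9, was at 1.14 CPM in sham depleted and 13.7 CPM in BLM depleted cells, a log2 ratio of 3.58 (3.16 to 4.04).

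The genes whose pattern over the 6 libraries was closest to a member were found by the root mean square difference of centred log2 CPM among 15576 genes, as a description. Prom1 was closest to Il1a, at 0.15. Closest to Il1b was A530013C23Rik, to Osm Cd14, to Il1rn Clec5a and to Tnf Cd80. For Csf1 the closest gene was Spata25 and for Csf2 Gm15232.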
